A study of Mus musculus with 4 samples.

Results

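The 49 genes described here are interferon-stimulated genes, the set of genes that cells switch on when they sense interferon. The set is a list of gene symbols, and 48 of them had a row among the 32285 genes counted in spleen T cells (Tc) of transplanted mice. The remaining gene, Mx1, was not analysed here. The question behind the data was how the RNA of donor Tc changes when TIM-3, an inhibitory receptor encoded by Havcr2, is deleted in CD8+ Tc during the response to leukemia.

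BALB/c mice received lethal total body irradiation, bone marrow, 10000 cells of WEHI-3B, a mouse line of acute myeloid leukemia (AML), and on day 2 200000 Tc from the spleen of C57BL/6 donors. The donors were either Havcr2fl/fl;E8icre/+, in which E8i-cre is meant to delete the floxed Havcr2 alleles in CD8+ cells, or Havcr2fl/fl, in which the same floxed alleles stay intact because no cre is present. Per the paper, the bone marrow was of these genotypes too, so donor cells other than Tc also differed in genotype between groups. Both groups therefore carried the floxed alleles, the transplant and the leukemia, and no untreated mice were part of the comparison. Spleens were taken on day 23 after transplantation, and the cells were stained with an oligo-tagged antibody against the donor haplotype H-2Kb. There were 2 libraries of each genotype, and values of single libraries are given in the order Havcr2fl/fl;E8icre/+ replicates 1 and 2, then Havcr2fl/fl replicates 1 and 2. The labels do not say that the 2 libraries of a genotype came from separate donors, so p-values measure the spread between libraries.

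After filtering, 11500 cells remained, among them 4282 CD8+ Tc (486 to 1539 per library) and 1767 CD4+ Tc (241 to 629 per library). The summed unique molecular identifiers (UMIs, each marking a captured RNA molecule) ranged from 3980480 to 8927390 per library in CD8+ Tc and from 1042700 to 3872290 in CD4+ Tc. Levels are given as CPM, the UMIs of a gene scaled to a common total per library. Each molecule was tagged once at its 3′ end, so that levels of different genes can be compared without correction for length. A pan-T kit was used per the labels, but 3117 cells were erythroid-like and others carried markers of myeloid and stem cells, and these are used below as other cell classes. The libraries shared 16 cell barcodes over all pairs. Fewer cells of a state and less RNA per cell cannot be told apart in the summed counts.

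Havcr2 itself was measured first, since it checks the labels. Its level in CD8+ Tc was 61.2 and 7.83 CPM in the Havcr2fl/fl;E8icre/+ libraries and 54.8 and 114 CPM in the Havcr2fl/fl libraries. The library labelled Havcr2fl/fl;E8icre/+ replicate 1 thus held Havcr2 RNA at a level between those of the controls, which goes against its label, and replicate 2 stood apart. Replicate 2, of the same labelled genotype and counted in the same way, was at 7.83 CPM. The cause of the level in replicate 1 was not tested, and RNA alone does not show whether the protein was lost. Counts of member calls and medians over all members in CD8+ and CD4+ Tc are given with and without the library labelled Havcr2fl/fl;E8icre/+ replicate 1. The same holds for the members described with the largest fold changes by genotype. Values of pathway genes are given only with that library included. The 6 markers of Tc were checked as well, and Cd3d, Cd3e, Cd3g and Trac summed to 4283 to 4681 CPM in CD8+ Tc and to 6.46 to 64.0 CPM in erythroid-like cells.

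Interferons are secreted proteins that warn cells of infection and direct immune responses. Type I interferons bind the receptor IFNAR1/IFNAR2 and signal through JAK1 and TYK2, and their target genes often carry a DNA element called ISRE. Interferon-γ, made by Tc and natural killer cells, binds IFNGR1/IFNGR2 and signals through JAK1 and JAK2, and its target genes often carry a different element called GAS. Many target genes answer to both. Their products sense viral nucleic acid, block viral RNA and proteins, attack vacuoles of intracellular microbes, or feed back on the pathway. In Tc the same genes are known to be raised by interferon in chronic infection, tumors and graft-versus-host disease.

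The promoters of the members were searched for the letters of these elements. RefSeq promoter windows, 250 bases before to 50 bases after the start, existed for 36 of the 49 genes. Some genes had more than 1 window, and a gene was counted when any of its windows matched. The core of the ISRE, searched as GAAANNGAAA on both strands, was present for 23 of these 36 genes (63.9%) and for 1079 of all 27025 genes with a window (3.99%). The core of the GAS element, searched as TTCNNNGAA, was present for 8 of the 36 genes (22.2%) and for 9.55% of all genes with a window. ISRE letters were found in 4 of 4 p200 genes, 5 of 5 GTPase genes, 2 of 2 sensors, 7 of 12 antiviral effectors, 2 of 5 signaling genes, 2 of 3 Schlafen genes and 1 of 4 other genes with a window, and in the only window of the ADP-ribosylation genes they were absent. A match is a description of letters and does not show that a factor binds. The 150 bases before the start are printed below for the 4 genes with the highest RNA level in CD8+ Tc among named genes with a match, and for Isg15 and Ifi208, chosen after their values were seen because results described below turn on them. Sequences run 5′ to 3′ on the strand of the gene, with the ISRE letters in capitals (build GRCm38.p6, RefSeq), and Isg15 and Bst2 carried overlapping matches. In Ifi203 and Ifi208 the matched letters were identical.
Ifi203, chr1:173942493-173942642 (minus strand): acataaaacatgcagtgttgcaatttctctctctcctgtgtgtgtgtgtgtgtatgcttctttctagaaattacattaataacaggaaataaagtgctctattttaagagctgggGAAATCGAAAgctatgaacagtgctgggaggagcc
Gbp7, chr3:142530186-142530335 (plus strand): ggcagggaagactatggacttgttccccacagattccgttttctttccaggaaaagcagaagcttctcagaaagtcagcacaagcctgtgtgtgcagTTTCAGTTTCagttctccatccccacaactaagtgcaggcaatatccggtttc
Bst2, chr8:71537473-71537622 (minus strand): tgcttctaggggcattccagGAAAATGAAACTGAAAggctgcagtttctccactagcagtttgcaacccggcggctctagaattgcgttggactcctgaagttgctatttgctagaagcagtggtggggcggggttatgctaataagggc
Igtp, chr11:58199406-58199555 (plus strand): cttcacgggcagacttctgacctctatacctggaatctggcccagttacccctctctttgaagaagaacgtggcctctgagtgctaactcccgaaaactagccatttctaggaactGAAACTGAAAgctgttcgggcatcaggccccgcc
Isg15, chr4:156200819-156200968 (minus strand): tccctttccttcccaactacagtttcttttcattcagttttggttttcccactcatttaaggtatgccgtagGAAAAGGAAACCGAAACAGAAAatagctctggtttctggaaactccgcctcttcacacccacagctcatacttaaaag
Ifi208, chr1:173673515-173673664 (plus strand): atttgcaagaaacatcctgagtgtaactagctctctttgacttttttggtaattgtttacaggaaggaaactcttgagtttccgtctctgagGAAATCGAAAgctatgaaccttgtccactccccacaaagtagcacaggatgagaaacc
The members lie in families of neighboring genes. The 4 p200 genes span chr1:173468485-173942672, and the 4 Ifit genes span chr19:34550694-34650009 (GRCm38, GENCODE M21). Chromosome 11 holds 9 members, among them Slfn1, Slfn5, Slfn8, Irf1, Igtp and Irgm1, and chromosome 5 holds 8 members of the Oas and Gbp families. Ifi208 lies on chromosome 1 from 173673675 to 173698395 on the plus strand, Ifi27l2a on chromosome 12 from 103442167 to 103443680 on the minus strand, and Isg15 on chromosome 4 from 156199424 to 156200818 on the minus strand. Ifi203 overlaps Mndal on the same strand, Gbp4 overlaps Gbp8, and Igtp overlaps Irgm2, so that the assignment of reads between these is less certain. The p200, Gbp, Schlafen and Oas families also have close paralogs that can share reads.

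Interferon-stimulated RNA was present in every cell class, and CD4+ Tc held more of it than CD8+ Tc. The 48 members together took 3343, 3647, 2935 and 3021 CPM in CD8+ Tc (mean 3237 ± 325, SD, n = 4). In CD4+ Tc they took 4951, 5305, 4145 and 4140 CPM (4635 ± 587). The CD4+ Tc value was higher in each of the 4 libraries. In both lineages the 2 Havcr2fl/fl;E8icre/+ libraries lay above the 2 Havcr2fl/fl libraries. The sum rests heavily on Ifi27l2a, a strongly inducible gene that encodes a small membrane protein, and without it the sums were 2714, 2860, 2520 and 2632 CPM in CD8+ Tc and 3437, 3371, 2980 and 3197 CPM in CD4+ Tc, with the same order of groups.

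**Figure D1:**
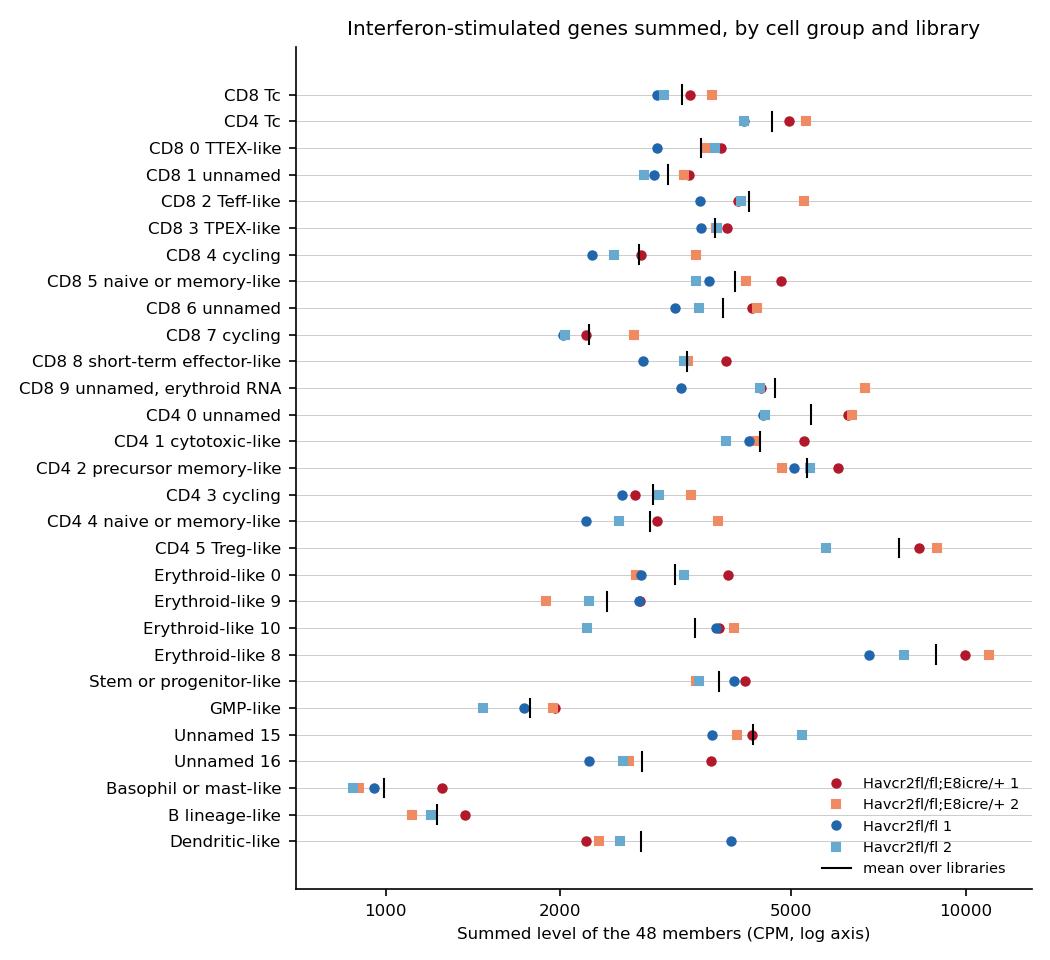
Summed level of the 48 interferon-stimulated genes (CPM, log axis) in each cell class and Tc state. A point is a library and the black line is the mean over libraries. Late erythroid-like cells of cluster 8 (mean 8886 CPM) and the Treg-like CD4+ state (7656 CPM) lie highest, and basophil- or mast-like cells (996 CPM) lowest.

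All 48 members had at least 1 UMI in CD8+ Tc. Of these, 41 reached 10 CPM and 8 reached 100 CPM, with a median of 46.1 CPM. In CD4+ Tc 41 members reached 10 CPM and 12 reached 100 CPM, with a median of 55.8 CPM. The most abundant gene in CD8+ Tc was Ifi27l2a at 630, 787, 415 and 389 CPM (555 ± 189), and both Havcr2fl/fl;E8icre/+ libraries lay above both controls. Next was Ifi203, a DNA-binding p200 gene, at 406 ± 48.5 CPM, followed by Irf1, a transcription factor and an early target of interferon-γ, at 203 ± 15.8 CPM. Gbp7, a guanylate-binding GTPase, was measured at 171 ± 2.56 CPM, and Parp14, an ADP-ribosyltransferase, at 155 ± 4.87 CPM. Parp14 and Gbp7 varied little between libraries, whereas Ifi27l2a was the most variable of these 5 genes. At the low end Oas2, which makes the activator of RNase L, was at 0.194 CPM.

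By role, the GTPases and the p200 genes made up the largest parts of the RNA in CD8+ Tc beside the group of other genes that holds Ifi27l2a. The 4 p200 genes summed to 461, 575, 498 and 486 CPM, or 15.7% of all member RNA. The 9 GBP and IRG GTPases, which coat and disrupt vacuoles of intracellular microbes, summed to 645, 636, 574 and 637 CPM (19.3%). The 6 genes of signaling and feedback summed to 391, 379, 366 and 350 CPM (11.5%), and the 13 antiviral effectors to 279, 302, 207 and 299 CPM (8.39%). Sensors of viral RNA and DNA, with Zbp1 highest at 100 ± 8.86 CPM, took 6.56%, the ADP-ribosylation complex of Parp9, Parp14 and Dtx3l 9.40%, and the Schlafen genes 4.53%. Among antiviral effectors the highest was Bst2, which encodes tetherin, a protein that holds budding virus at the membrane, at 86.9 ± 13.6 CPM. Genes often used as a type I interferon signature were lower. Isg15, which encodes a ubiquitin-like modifier, was at 56.1 ± 16.7 CPM, Rsad2, which encodes the antiviral enzyme viperin, at 15.1 ± 7.38 CPM, and Usp18, which removes ISG15 from proteins, at 4.97 CPM.

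The makeup of the interferon RNA differed between cell classes, as seen in the map of levels by gene and class. In erythroid-like cells the members summed to 4051, 3586, 3584 and 3123 CPM, a level similar to CD8+ Tc. The p200 genes took 0.920% of this and the Schlafen genes, known for roles in lymphocyte quiescence, 0.372%. Antiviral effectors took 30.4% and signaling genes 19.9%. Isg15 averaged 486 CPM there and Isg20, an RNA exonuclease, 491 CPM. The most extreme class was the late erythroid-like cluster 8 of 677 cells, at 9977, 10948, 6813 and 7808 CPM (8886 ± 1906). In it Isg15 averaged 3241 ± 909 CPM, Rsad2 1764 ± 536 CPM and Isg20 1362 ± 259 CPM, while Ifi27l2a was at 4.02 CPM. In stem/progenitor-like cells the GTPases took 50.9% of member RNA, with Iigp1, an IRG GTPase, at 587 ± 30.6 CPM and Gbp7 at 385 ± 53.0 CPM. The granulocyte-monocyte progenitor-like cluster 13 summed to 1958, 1947, 1731 and 1470 CPM. The unnamed cluster 15, led by Ngp, S100a9, Camp and S100a8, summed to 4285, 4038, 3650 and 5227 CPM and held Slfn1 at 351 ± 86.5 CPM and Oasl2 at 265 CPM. Clusters were made without the members, but from the same cells, so these differences are described and not tested.

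**Figure D2:**
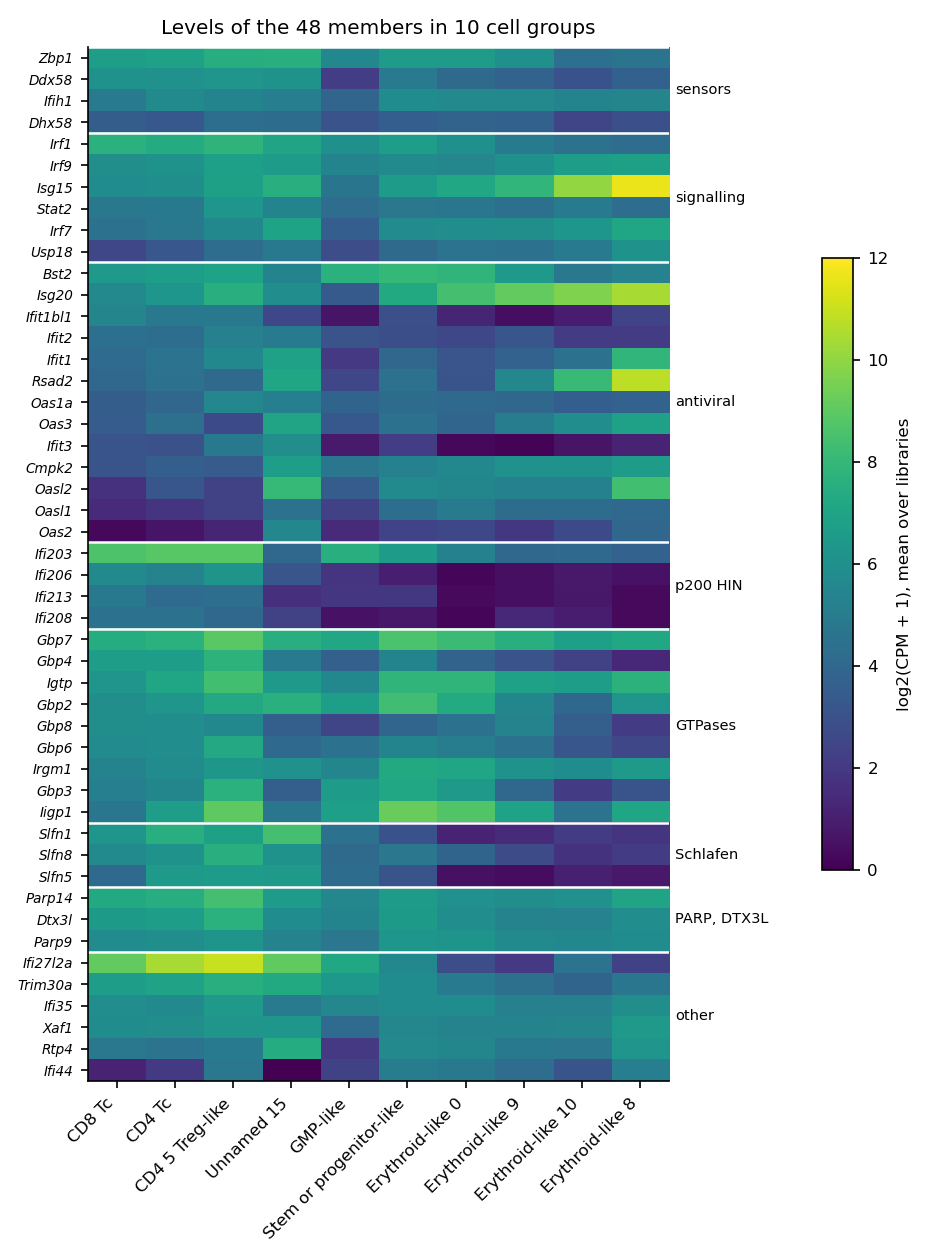
Mean level of each of the 48 members, as log2(CPM + 1) over libraries, in 10 cell classes and states, with genes ordered by role. Isg15, Rsad2 and Isg20 are highest in the erythroid-like cluster 8, Ifi203 and Ifi27l2a in Tc, and Iigp1 in stem/progenitor-like and Treg-like cells.

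Within CD8+ Tc the share of RNA that was interferon-stimulated differed between states. It was highest among the named states in the effector (Teff)-like state 2 at 4054, 5253, 3488 and 4104 CPM (4225 ± 741) and in the naive or memory-like state 5 at 4804, 4173, 3604 and 3430 CPM (4003 ± 621), which overlapped. The precursor exhausted (TPEX)-like state 3 was at 3871, 3707, 3502 and 3727 CPM. State 0, named terminally exhausted (TTEX)-like by the marker rule, was at 3784, 3586, 2940 and 3690 CPM. That name is uncertain, since state 0 raised 4 of 9 TTEX markers (Tox, Pdcd1, Lag3 and Cd160). The unnamed state 1 raised 6 of them, with Eomes and Nr4a2, but another class led its top genes. The paper reports high Eomes and Nr4a2 in its own terminally exhausted cluster. State 5 raised 3 of 6 naive or memory markers (Lef1, S1pr1 and Klf2), so its name is uncertain too. The lowest were the cycling states 4 and 7, which averaged 2731 and 2239 CPM. Their cells were deeper, with a median of 7933 and 10533 UMIs, against 3128 in Teff-like state 2. CPM is a share of RNA, so this order is not one of member UMIs per cell. State 9, of 41 cells in all, averaged 4696 CPM, but these cells carried erythroid RNA, and Isg15 averaged 868 CPM, Rsad2 576 CPM and Isg20 308 CPM in them. Single genes differed between states in their own ways. Irf1 was at 398 CPM in Teff-like and at 122 CPM in TPEX-like cells, whereas Slfn5 was at 72.7 CPM in TPEX-like and at 0.563 CPM in Teff-like cells. Ifi27l2a averaged 936 CPM in TPEX-like, 885 CPM in naive or memory-like, 436 CPM in Teff-like and 228 CPM in short-term effector-like cells.

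Among CD4+ Tc the regulatory (Treg)-like state 5 held the most interferon-stimulated RNA. It reached 8299 and 8934 CPM in the Havcr2fl/fl;E8icre/+ libraries and 5735 CPM in Havcr2fl/fl replicate 2, and Havcr2fl/fl replicate 1 had too few such cells for a value. The state held 35, 53, 4 and 15 cells per library. GTPases took 29.3% and Ifi27l2a 25.9% of it. Over the libraries with a value Iigp1 averaged 515 ± 145 CPM in this state, against 101 ± 25.4 CPM in all CD4+ Tc over 4 libraries. On the same basis Gbp7 averaged 485 ± 8.32 CPM against 199 ± 13.1 CPM. The CD4+ Tc means include Havcr2fl/fl replicate 1, where Iigp1 was lowest at 68.6 CPM. Parp14 averaged 343 CPM and Isg20 191 CPM. The precursor memory-like state 2 averaged 5324 CPM and held Slfn5 at 264 CPM. As in CD8+ Tc, the cycling state was low at 2893 CPM, and the naive or memory-like state was equally low at 2856 CPM. Their median depths were 11074 and 4680 UMIs, so equal CPM does not mean equal member UMIs per cell. The name naive or memory-like is uncertain, since this state raised 3 of 5 markers (S1pr1, Klf2 and Satb1). Ifitm1, Ifitm2 and Klrk1 led its top genes.

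A small share of CD8+ Tc held far more interferon-stimulated RNA than the rest. When the members were kept among the genes used for clustering, a cluster of 43 CD8+ Tc formed, with 10, 13, 5 and 15 cells per library. This was 0.650% (95% Wilson interval 0.353 to 1.19), 1.35% (0.791 to 2.30), 1.03% (0.440 to 2.39) and 1.16% (0.704 to 1.90) of CD8+ Tc, and the intervals of all 4 libraries overlapped. The members summed to 18507, 25552, 10363 and 18938 CPM in these cells. The cells held 0.652% of the UMIs of CD8+ Tc, but 44.7% of those of Ifit3 (88 of 197), 34.4% of those of Ifit1 (154 of 448), both of the IFIT family of viral RNA-binding proteins, and 12.9% of those of Isg15 (190 of 1477). With the members left out of the clustering they were spread over 7 states, with 16 cells in state 0, 9 in state 5 and 8 in Teff-like state 2. Since the members made the cluster, these values are a description.

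Over most other cells the RNA was broadly spread. Cells were thinned to 2000 UMIs, and those with fewer were left out. These were 33, 10, 14 and 149 CD8+ Tc and 19, 8, 7 and 54 CD4+ Tc, most of them in Havcr2fl/fl replicate 2. Of the CD8+ Tc kept, 58.3%, 57.6%, 46.4% and 52.9% held a UMI of at least 5 members. In CD4+ Tc the shares were 72.7%, 69.2%, 59.8% and 59.5%, higher in each library than in CD8+ Tc. Without thinning the shares over all libraries were 90.8% and 93.5%, at median depths of 4802.5 and 4520 UMIs. After thinning, cells with no member at all made up 1.18% of the CD8+ Tc kept and 0.715% of the CD4+ Tc kept. The 10% of cells with the most member UMIs held 26.9% of member UMIs in CD8+ Tc and 27.8% in CD4+ Tc, against 37.5% in erythroid-like cells. Ifi203 was detected in 55.1% of CD8+ Tc, 56.8% of CD4+ Tc and 4.45% of erythroid-like cells at equal depth (unthinned median of the last 17546 UMIs), so that its share in Tc was far above that of cells which hold little of it. Isg15 was detected in 8.54% of CD8+ Tc and in 47.7% of erythroid-like cells. Counting error alone is covered by the intervals.

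**Figure D3:**
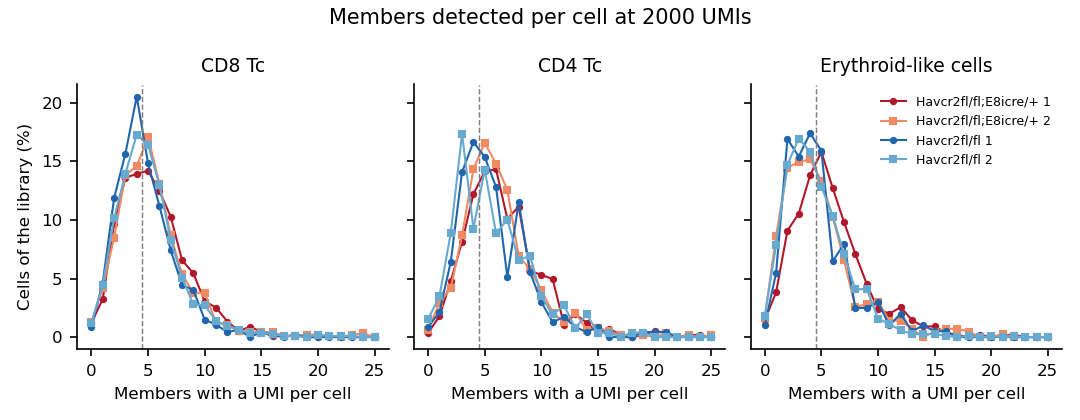
Share of cells of each library (percent) by the number of members with at least 1 UMI after thinning to 2000 UMIs, in CD8+ Tc, CD4+ Tc and erythroid-like cells. Cells with fewer than 2000 UMIs were left out. The dashed line separates cells with 5 or more members, 55.3% of CD8+ Tc and 67.6% of CD4+ Tc over all libraries.

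CD8+ and CD4+ Tc of the same libraries were then compared, a test with library as a block. Of the 45 members tested, 19 (42.2%) passed the adjusted threshold of 0.05, beside 24.3% of all 10332 genes. More were lower in CD8+ Tc, namely 14 (31.1%, beside 12.3% of all genes), than higher, namely 5 (11.1%, beside 12.0%). The median log2 difference was -0.15 over members and 0.00 over all genes. All adjusted p-values are from edgeR's quasi-likelihood test over all genes. Leaving out the library labelled Havcr2fl/fl;E8icre/+ replicate 1 left 13 members past the threshold, and DESeq2 called 12. The share of all genes called is not set beside these counts, so they are not read as a result about the members.

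All 3 Schlafen genes were lower in CD8+ Tc. Slfn5 was at 11.3, 26.6, 17.7 and 10.2 normalised CPM in CD8+ Tc and at 94.3, 90.6, 69.7 and 89.2 in CD4+ Tc (log2 difference -2.41, SE 0.19, adjusted p = 9.39e-07). Slfn1, a growth regulator of thymocytes, was at 65.4, 95.3, 85.9 and 72.8 normalised CPM in CD8+ Tc against 144, 194, 202 and 196 in CD4+ Tc (-1.19, SE 0.07, adjusted p = 7.19e-08). The lineages did not overlap for either gene. Slfn8 differed by -0.34 (adjusted p = 0.01002). Of the 9 GTPases 4 were lower in CD8+ Tc and none higher. Iigp1 was at 26.7, 36.5, 11.2 and 27.5 normalised CPM in CD8+ Tc and at 121, 110, 68.4 and 97.0 in CD4+ Tc (-1.96, SE 0.12, adjusted p = 9.42e-08). Igtp, an IRG GTPase too, was at 79.6, 74.8, 68.8 and 82.8 against 125, 125, 131 and 151 normalised CPM (-0.78, adjusted p = 2.42e-06). Irgm1, a regulator of the other IRG proteins, and Gbp2 differed less, by -0.36 and -0.26. For Iigp1 and Igtp every CD4+ Tc library lay above every CD8+ Tc library.

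The gene with the smallest p of the members was Ifi27l2a, at 621, 818, 429 and 399 normalised CPM in CD8+ Tc against 1429, 1923, 1162 and 954 in CD4+ Tc (-1.28, SE 0.05, adjusted p = 3.91e-09). Among sensors Ifih1, which encodes the RNA sensor MDA5, was lower in CD8+ Tc, at 29.2, 37.6, 26.2 and 32.0 against 56.7, 51.1, 51.0 and 50.4 normalised CPM (-0.74, adjusted p = 0.000223). In antiviral effectors 3 of 11 were lower and 1 higher in CD8+ Tc. The lower ones were Oasl2, an OAS-like protein (-1.74, SE 0.27, adjusted p = 0.000389), Oas3 (-0.96, adjusted p = 0.00131), and Isg20, at 47.6, 58.3, 37.7 and 57.4 against 80.3, 99.9, 36.9 and 95.1 normalised CPM (-0.64, adjusted p = 0.000522). For Isg20 the lineages were nearly equal in Havcr2fl/fl replicate 1 and apart in the other libraries. Usp18 differed by -0.82 (adjusted p = 0.0457).

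Higher in CD8+ Tc was Irf1, at 218, 195, 218 and 197 normalised CPM against 176, 150, 169 and 164 (0.33, SE 0.06, adjusted p = 0.000585). The p200 genes Ifi213 and Ifi206 were higher in CD8+ Tc, by 0.67 (adjusted p = 0.00124) and 0.37 (adjusted p = 0.00828), whereas their neighbor Ifi203 was lower by a small amount (-0.15, adjusted p = 0.0485). Ifit1bl1, of the IFIT family, was at 43.5, 51.0, 39.5 and 41.5 against 33.1, 24.6, 31.5 and 19.4 normalised CPM (0.69, adjusted p = 0.00187), and Ifi35 was higher by 0.27 (adjusted p = 0.0246). None of the 3 ADP-ribosylation genes passed the threshold. Under all 13 settings tried, 12 of the 19 passed the threshold, while Gbp2, Ifi203, Ifi206, Ifi35, Irgm1, Slfn8 and Usp18 missed it in at least 1 of them.

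**Figure D4:**
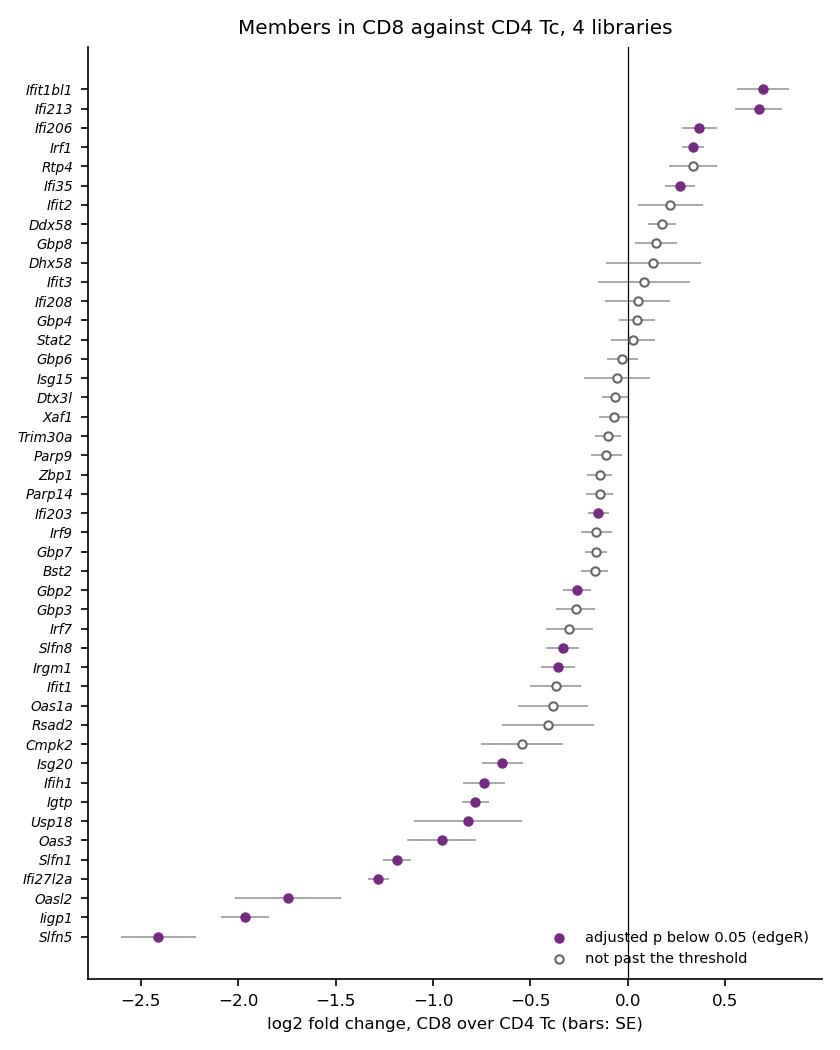
Log2 difference of CD8+ over CD4+ Tc for the 45 members tested, with the standard error as a bar. Filled points have an adjusted p under 0.05. Slfn5, Iigp1, Oasl2, Ifi27l2a and Slfn1 lie farthest to the left, and Ifit1bl1 and Ifi213 farthest to the right among filled points.

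Erythroid RNA was present in Tc and differed between libraries and lineages. The 7 erythroid markers summed to 3730, 2940, 4671 and 2226 CPM in CD8+ Tc and to 5769, 5250, 213 and 4811 CPM in CD4+ Tc. They were low in CD4+ Tc of Havcr2fl/fl replicate 1, where Isg15 and Rsad2 were lowest as well. In CD8+ Tc the same library had the highest sum of erythroid markers and the lowest Isg15 and Rsad2. When Tc with 1% or more of their UMIs from these markers were left out, 4239 CD8+ and 1746 CD4+ Tc remained, and Rsad2 fell from a mean of 15.1 to 8.51 CPM in CD8+ Tc and from 21.7 to 8.75 CPM in CD4+ Tc. In these cells the log2 differences between lineages of Oasl2, Oas3, Isg20 and Usp18 were -2.17, -0.91, -0.56 and -0.77 (adjusted p = 0.000154, 0.00234, 0.000327 and 0.0473). Erythroid RNA under 1% of the UMIs of a cell was not removed, and its part in these differences was not tested.

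Other genes of the pathway were compared in the same fit. Of 52 tested genes of a list of ligands, receptors, signaling genes, regulators and further interferon-induced genes, 8 were higher and 18 lower in CD8+ Tc, beside 12.0% and 12.3% of all genes. Among them 4 of 6 negative regulators were lower and 0 higher, 1 of 4 receptor genes was higher and 1 lower, and of 30 further interferon-induced genes 3 were higher and 8 lower. Interferon-γ (Ifng) averaged 99.3 ± 16.3 CPM in CD8+ Tc and 90.4 ± 41.1 CPM in CD4+ Tc and did not pass the threshold (0.23, adjusted p = 0.279). Of the 9 other ligands listed, 8 had no UMI in either lineage and Ifnk had a single one in CD4+ Tc. Ifngr1, the ligand-binding chain of the interferon-γ receptor, was lower in CD8+ Tc (-0.50), as was Socs1, an inhibitor of JAK kinases (-0.79). Jak1, a kinase shared by both receptors, was higher in CD8+ Tc by 0.19 (adjusted p = 0.0181). Ifngr2, the other chain of that receptor, was near the detection limit at 0.648 CPM in CD8+ Tc and was not tested. Ifnar1 and Ifnar2 averaged 59.9 and 51.4 CPM in CD8+ Tc.

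The libraries labelled Havcr2fl/fl;E8icre/+ were then compared with those labelled Havcr2fl/fl. In CD8+ Tc none of the 46 members tested passed the adjusted threshold, beside 0.0275% of all 10897 genes (3 genes). At an unadjusted p under 0.05 there were 5 members (10.9%, beside 2.56% of all genes), and DESeq2 called 0. Oasl2 was among the 5. The filter on low counts kept Oasl2 and Oasl1 in CD8+ Tc through the Havcr2fl/fl;E8icre/+ libraries alone, so their positive fold changes are only described. In CD4+ Tc none of 45 members passed, beside 0.0103% of 9676 genes (1 gene), with 4 members at an unadjusted p under 0.05 (8.89%, beside 3.16% of all genes) and 0 called by DESeq2. With 2 libraries a genotype the smallest p of an exact permutation test of a single value is 0.333. The log2 fold change was positive (higher in Havcr2fl/fl;E8icre/+) in 35 and negative in 11 members in CD8+ Tc, with a median of 0.10, and positive in 31 and negative in 14 in CD4+ Tc, with a median of 0.14. Over all genes the medians were -0.004 and -0.007. Without the library labelled Havcr2fl/fl;E8icre/+ replicate 1 the medians were 0.19 and 0.14, and 0 members passed in either lineage. Without replicate 2, which holds low Havcr2, the CD8+ median was 0.01, with 23 members positive and 22 negative. Positive medians over members were not confined to Tc. With all libraries they were 0.13, 0.39 and 0.33 in the erythroid-like clusters 0, 8 and 10. In stem/progenitor-like cluster 12 the median was 0.07, in cluster 13 0.19, and in the unnamed cluster 15 -0.15.

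The libraries of the genotypes did not overlap for 13 members in CD8+ Tc. Both Havcr2fl/fl;E8icre/+ libraries were above both controls in 11 of 46 members (23.9%, beside 13.7% of all genes) and below them in 2 (4.35%, beside 14.1%). In CD4+ Tc 14 of 45 were above (31.1%, beside 15.5%) and 5 below (11.1%, beside 15.6%). Ifi27l2a, Ddx58, which encodes the RNA sensor RIG-I, and Oasl2 were above in both lineages, and Ifi208 was below in both. The 11 members above in CD8+ Tc include Oasl1 and Oasl2. These passed the filter on low counts only through the Havcr2fl/fl;E8icre/+ libraries, so their place above the controls was fixed by being tested. Members are not independent of each other, and both lineages come from the same 4 libraries.

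Ifi208, a p200 gene, had the lowest fold change in both lineages. In CD8+ Tc it was at 10.9, 14.1, 32.5 and 28.0 normalised CPM, with both Havcr2fl/fl;E8icre/+ libraries below both controls (log2 fold change -1.28, SE 0.23, adjusted p = 0.359, and -1.11 with adjusted p = 0.365 without the library labelled Havcr2fl/fl;E8icre/+ replicate 1). In CD4+ Tc it was at 6.49, 15.5, 40.9 and 27.7 normalised CPM (-1.63, SE 0.39, adjusted p = 0.827). In the 8 Tc states where it could be tested its fold change was negative in all 8, from -1.77 to -0.10, with none past the adjusted threshold and the same libraries in each. In the cycling CD8+ state 7 the values were 4.04, 4.03, 11.2 and 15.4 normalised CPM. Under the filter on low counts Ifi208 could enter a state through the Havcr2fl/fl libraries alone, so its shared sign is only described. It passed the threshold in 2 of 14 alternatives in CD8+ Tc and in 3 of 14 in CD4+ Tc. In each lineage these included the fit without a filter on low counts. They also included a crossed pairing of replicates, which the labels do not give and which was added after the data were seen. In CD4+ Tc the fold change was -1.17 without the library labelled Havcr2fl/fl;E8icre/+ replicate 1, and it was -2.41 and past the threshold without Havcr2fl/fl;E8icre/+ replicate 2 (adjusted p = 0.000333).

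Ifi27l2a was the counterpart. In CD8+ Tc it was at 602, 808, 422 and 393 normalised CPM, with both Havcr2fl/fl;E8icre/+ libraries above both controls (0.79, SE 0.23, adjusted p = 1.00, and 0.98 with adjusted p = 0.958 without the library labelled Havcr2fl/fl;E8icre/+ replicate 1). In CD4+ Tc, in which E8i-cre is not meant to act, it was at 1456, 1966, 1181 and 973 normalised CPM (0.67, adjusted p = 1.00, and 0.87 without that library). The fold change was positive in 12 of 12 Tc states, from 0.15 to 1.39, again in the same libraries. The difference of the effect between lineages was tested as an interaction, and 0 of 47 members passed, beside 0.0184% of 10898 genes (2 genes), with Dhx58 and Gbp8 at an unadjusted p under 0.05 (4.26% of members, beside 4.29% of all genes) and 0 called by DESeq2, and 0 passed without the library labelled Havcr2fl/fl;E8icre/+ replicate 1. The interaction was 0.13 (SE 0.10) for Ifi27l2a and 0.40 (SE 0.33) for Ifi208.

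**Figure D5:**
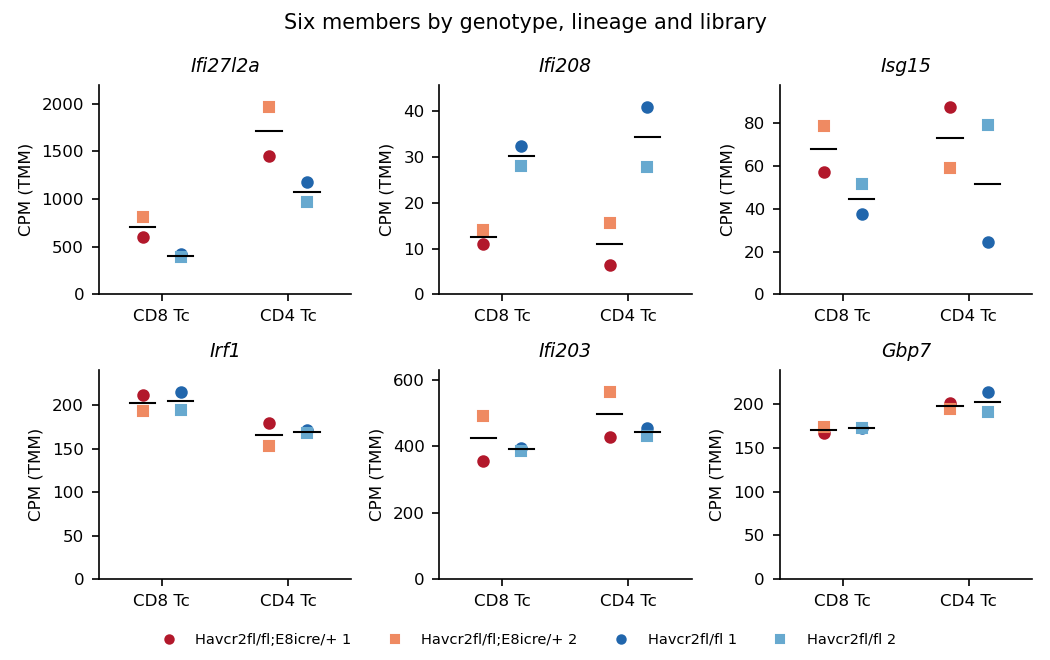
Normalised CPM of Ifi27l2a, Ifi208, Isg15, Irf1, Ifi203 and Gbp7 in CD8+ and CD4+ Tc, with a point for each library and a bar for the mean of a genotype. The genotypes lie apart for Ifi27l2a and Ifi208 in both lineages and overlap for Irf1.

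Other members with high fold changes, none of which passed, varied with single libraries. Isg15 in CD8+ Tc was at 57.2, 78.8, 37.6 and 51.5 normalised CPM (0.60, SE 0.23, adjusted p = 1.00), and at 0.37 on the log2 scale without cells that carried erythroid RNA. In CD4+ Tc it was at 87.7, 59.1, 24.5 and 79.2 (0.55), and at -0.12 without Havcr2fl/fl replicate 1. Rsad2 in CD8+ Tc was at 15.7, 22.1, 4.60 and 18.1 normalised CPM (0.69, SE 0.46), and its genotypes overlapped, since Havcr2fl/fl replicate 1 alone was low. Oas1a, an oligoadenylate synthetase, was at 13.4, 12.8, 6.64 and 9.80 (0.66) and Iigp1 at 25.9, 36.0, 10.99 and 27.1 (0.68). In CD4+ Tc Ifit3 was at 7.47, 12.3, 2.73 and 4.95 (1.43, SE 0.54), Dhx58, which encodes the RNA sensor LGP2, at 14.6, 10.2, 7.50 and 2.97 (1.14, SE 0.48), and Usp18 at 12.0, 9.71, 3.41 and 8.91 (0.90). These CD4+ values rest on few UMIs, and the adjusted p of each rounded to 1.00. Without the library labelled Havcr2fl/fl;E8icre/+ replicate 1 the fold changes in CD8+ Tc were 0.81 for Isg15, 0.92 for Rsad2, 0.62 for Oas1a and 0.90 for Iigp1, and in CD4+ Tc 1.73 for Ifit3, 0.88 for Dhx58 and 0.73 for Usp18, and none passed the threshold. The antiviral effectors tested had a median of 0.39 in CD8+ Tc and 0.49 in CD4+ Tc, and the GTPases 0.01 and -0.03. The CD8+ antiviral median includes Oasl2 (1.38) and Oasl1 (0.71), which entered the fit through the Havcr2fl/fl;E8icre/+ libraries alone. In the Havcr2fl/fl libraries Oasl2 was at 0.754 and 1.65 CPM and Oasl1 at 1.00 and 1.65 CPM. A median without these genes was not computed. The antiviral medians moved with single libraries. In CD8+ Tc they were 0.47 without the library labelled Havcr2fl/fl;E8icre/+ replicate 1, 0.08 without replicate 2, 0.08 without Havcr2fl/fl replicate 1 and 0.92 without its replicate 2. In CD4+ Tc, in the same order, they were 0.19, 0.35, 0.01 and 0.74. Without cells that carried erythroid RNA they were 0.25 in CD8+ Tc and 0.53 in CD4+ Tc.

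Some abundant members differed little between genotypes. Irf1 was at 211, 193, 215 and 194 normalised CPM in CD8+ Tc (-0.02), Gbp7 at 167, 174, 172 and 173 (-0.02), Parp14 at 154, 159, 154 and 153 (0.03) and Zbp1 at 96.1, 113, 89.9 and 103 (0.11). For these genes the spread within a genotype was as large as the difference between genotypes. Of these 4, the genotypes overlapped for Irf1, Gbp7 and Zbp1 and were narrowly apart for Parp14, and they also overlapped for Bst2 (-0.09), Ifi203 (0.12) and Slfn1 (0.01). After Ifi208, the lowest fold changes in CD8+ Tc among members of at least 5 CPM were those of Cmpk2, which makes nucleotides for mitochondria (-0.36), Ifi35 (-0.17), Stat2 (-0.15) and Gbp3 (-0.10). In CD4+ Tc they were those of Ifit2 (-0.34), Irgm1 (-0.33), Gbp8 (-0.25) and Slfn1 (-0.23). Without the library labelled Havcr2fl/fl;E8icre/+ replicate 1 they were -0.29, -0.04, -0.20 and -0.15 in CD8+ Tc and -0.21, -0.38, -0.33 and -0.04 in CD4+ Tc, in the order given, and none passed.

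Of the pathway, 51 genes were tested in each lineage and 0 passed. Ifng in CD8+ Tc was at 83.3, 85.8, 113 and 117 normalised CPM, with both Havcr2fl/fl;E8icre/+ libraries below both controls (-0.44, SE 0.17, adjusted p = 1.00). The receptor genes Ifnar1, at 61.3, 64.0, 59.0 and 55.5 (0.13), Ifnar2 (0.39) and Ifngr1 (-0.27), and the kinase genes Jak1 (-0.06) and Tyk2 (-0.05) did not pass. The feedback inhibitors Socs1 (-0.05) and Socs3 (-0.18) did not pass either.

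Within states and other cell classes 19 fits gave 64 calls among 121421 tests (0.0527%), of which a single one was a member. The p-values were adjusted within each fit and not across the 19 fits. Isg15 in the granulocyte-monocyte progenitor-like cluster 13, which holds 69 to 110 cells per library, was at 31.9, 44.0, 12.96 and 10.3 normalised CPM (1.68, SE 0.26, adjusted p = 0.0407). It was also called without the library labelled Havcr2fl/fl;E8icre/+ replicate 1 (1.92, adjusted p = 2.67e-06) and by DESeq2, but not without Havcr2fl/fl replicate 2 (1.54, adjusted p = 0.291). The erythroid markers moved with it in this cluster, at 1426, 1342, 200.0 and 270.0 CPM in sum, and late erythroid-like cells held the highest level of Isg15. The part of that RNA in the result was not tested. The count of member calls over the 19 fits depended on the libraries. It rose when any library was left out, as did the calls over all genes. The share of member tests called was not computed for these fits, so their counts are not read as a result about the members. In these fits a genotype is left with 1 library, which is assumed to vary like the others. Ifi27l2a was the member called most often over cell groups in these fits, but its calls do not share a direction. In stem/progenitor-like cluster 12 the Havcr2fl/fl replicates were at 130.3 and 3.86 normalised CPM. Both Havcr2fl/fl;E8icre/+ libraries lay between them (log2 fold change with all libraries -1.16, SE 1.01). The sign there thus turns on which control is left out. In erythroid-like clusters 0 and 10 the controls held little Ifi27l2a, at 8.98 and 1.18 and at 4.52 and 0.477 normalised CPM.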

How the data were processed

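The deposited files hold raw UMI counts, which the authors made per gene and barcode without any scaling. The submitters' processing notes name Cell Ranger 6.1.2 and mm10, and the annotation is not given in the sources used here. The members, gene lists and tests were chosen with earlier results of these data known. Barcodes had to hold 500 genes and 1000 UMIs or more, with a mitochondrial share of 10% or less (11632 of 15784 barcodes with 142576164 gene UMIs passed), and 132 doublets found by Scrublet (scanpy 1.11.5) were removed. Scrublet called few cells in 3 libraries, so that removal at 0.8% per 1000 barcodes was an alternative. Median depth was 5232 to 7454.5 UMIs per cell, and 54 cells lacked the donor tag. Cells were integrated and clustered with Seurat 5.3.0 (R 4.3.3, 2000 variable genes, 30 dimensions, 20 neighbors), with members and pathway genes left out of the variable genes. Clusters were named from marker lists, as X-like, if at least 3 markers were raised and no other class led the top genes. Within Cd3 clusters, cells counted as CD8+ Tc when Cd8a or Cd8b1 was detected without Cd4, and as CD4+ Tc in the reverse case. Of 6812 Tc, 540 held a UMI of neither kind, and Tc with both kinds entered neither lineage.

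UMIs were summed per library and group. Levels are CPM of all gene UMIs. Tests used edgeR 4.0.16 (filterByExpr, TMM, quasi-likelihood test, Benjamini-Hochberg adjustment over all genes, threshold 0.05), tested on simulated data, and normalised CPM are scaled by TMM. The genotype tests used the 4 sums of a lineage. Lineage and interaction tests kept the library as a block. Python 3.11.15 was used for levels, thinning and intervals (95% Wilson), which cover counting error only. Alternatives were DESeq2 1.42.0, its size factors, no filter on low counts, stricter cells (1000 genes, 5% mitochondrial UMIs), other treatment of doublets, tag-positive cells, and each library left out. Added after the data were seen were a crossed pairing, removal of Tc with 1% or more erythroid UMIs, and DESeq2 and left-out libraries for the states. Named genes were members past the threshold, the most abundant member of each role in CD8+ Tc, up to 5 members with the highest and 5 with the lowest fold change in each lineage among those of at least 5 CPM, and 10 pathway genes, of which 1 is not reported here. Ddx58, Oas2, Oasl1, Ifit1 and the pathway gene Ifnk were named after their values were seen. Cluster numbers are those of this clustering, not the study's. Mx1 and, of the 65 pathway genes, 1 gene were not analysed here.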

Additional observations from a re-analysis of the deposited data

How the results depend on the processing

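The counts of members past the threshold by genotype were 0 in both lineages and stayed 0 under all alternatives but those that follow. Without a filter on low counts 1 member (Ifi208) passed in CD8+ Tc and 1 in CD4+ Tc, with 84 and 55 genes in all and 56 for the interaction, where more genes at very low counts were tested. Equal replicate numbers did not pair the libraries (correlation of their deviations -0.11 in CD8+ and -0.09 in CD4+ Tc). With the replicate block 0 genes passed in CD8+ Tc and 2 in CD4+ Tc, and with the crossed pairing 59 and 45, of which 1 in each was a member, Ifi208. In CD4+ Tc DESeq2 called 5 genes, and its size factors, the stricter cell filter, doublets by expected rate and removal of cells with erythroid RNA each left 0. Doublets by expected rate gave 4 genes for the interaction. Over fits that left out 1 library, the calls ranged from 1 to 32 genes in CD8+ Tc, from 0 to 29 genes and from 0 to 1 members (Ifi208, without Havcr2fl/fl;E8icre/+ replicate 2) in CD4+ Tc, from 6 to 43 genes for the interaction, and from 242 to 2116 genes and from 2 to 17 members over states and classes. Between lineages DESeq2 called 12 members and 1504 genes. Reversed were Ifi35 in CD8+ Tc (0.19 without Havcr2fl/fl replicate 2, range with a library left out -0.45 to 0.19), Rsad2 in CD4+ Tc (-0.19 without Havcr2fl/fl replicate 1, range -0.19 to 2.65) and Ifit2 in CD4+ Tc (0.15 without Havcr2fl/fl replicate 2, range -0.78 to 0.15). For these counts and reversals the cause was not tested. The highest member sum of a CD8+ state was 18340 CPM when members were kept for clustering, which made the cluster. The share with 5 or more members was 18.2% in CD8+ and 29.99% in CD4+ Tc at 1000 UMIs, where fewer UMIs per cell are kept, and ranged from 53.5% to 56.4% and from 65.0% to 69.1% with a library left out. Of the named genes' values under alternatives, 574 kept direction and side of the threshold, 31 fell below it, 5 rose past it (all Ifi208) and 3 reversed. Depth limits genes under about 10 CPM, such as Ifit3, Usp18 and Oasl2, which rest on few UMIs per library.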

Other observations

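Tc with a UMI of neither Cd4 nor Cd8 genes, 540 cells with 45 to 206 per library, held member RNA at 5141, 5091, 3865 and 5096 CPM in sum (4799 ± 622), closer to the mean of CD4+ Tc (4635 CPM) than to that of CD8+ Tc (3237 CPM). Their median depth was 2975 UMIs. Dendritic-like cells of cluster 19, 6 to 32 per library, summed to 2219, 2335, 3934 and 2531 CPM. B-like cells averaged 1228 CPM over the 3 libraries with enough cells, and basophil- or mast-like cells were lowest at 1249, 901, 954 and 880 CPM.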
